A study of Pan troglodytes with 38 samples.

Results

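The 10 genes described here encode core cardiac transcription factors: GATA4 and GATA6, NKX2-5, TBX5 and TBX20, MEF2A, MEF2C and MEF2D, and HAND1 and HAND2. They were chosen by name, as known cardiac factors and not by a threshold on measured values, and each matched a single row among the 31373 annotated genes of the deposited chimpanzee count table. Expression was measured by RNA-seq of polyadenylated RNA in heart tissue taken post mortem from 38 captive born chimpanzees (Pan troglodytes), 1 library per animal. The labels put all 38 in 1 group, give no treatment or genotype, and name no chamber of the heart. The study's sample table notes 7 of the animals as infected with hepatitis B or C virus and 1 as exposed to another virus, all 8 extracted in 2018 and from 1 primate center. RNA was extracted in 2018 for 21 animals and in an earlier year for 17, and the sample table marks every library of the earlier year as a published one sequenced again, so extraction year and library origin cannot be told apart. The study's methods text gives a smaller number of libraries sequenced again, and the disagreement could not be settled here. There were 22 female and 16 male animals, the RNA integrity number (RIN) was between 2.5 and 8.4, and some animals are first-degree relatives, so p-values, which treat animals as independent, measure only the spread between these animals. The human hearts of the study were not analyzed here.

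GATA factors bind GATA motifs through zinc fingers, NKX2-5 is a homeodomain protein, TBX5 and TBX20 are T-box proteins, MEF2 factors are MADS-box proteins, and HAND1 and HAND2 are basic helix-loop-helix proteins. These factors bind together at many cardiac enhancers and promoters, form the heart in the embryo, and keep genes of contraction and conduction on in the adult. HAND1 is known for the left ventricle, HAND2 for the right ventricle and outflow tract, TBX5 for the atria, left ventricle and conduction system, and MEF2C is also made by endothelial and other cells.

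The deposited counts summed to between 43892814 and 132478050 per library, and mitochondrial genes took between 17.2% and 60.1% of them. Levels below are read counts scaled to a common library size (CPM), where that size is adjusted by the trimmed mean of M values (TMM) for differences in library makeup. They are compared between animals and never between genes, since gene lengths were not used. The libraries of 4 animals stood apart in their markers or in member levels, and this set was chosen after the data were seen. Animals 537 and Little_R had the lowest sums of the 12 cardiomyocyte markers, 11324 and 8030 CPM against a median of 49094 CPM, together with the highest sums of the 9 fibroblast and the 7 measured endothelial markers. Animal 4X0354, noted as infected, had a RIN of 3.3 and the second highest sum of atrial markers, of which NPPA made up 8064 of 8117 CPM. Its cardiomyocyte sum, 36632 CPM, was at rank 9 from the lowest. Animal 495 is outside the set, though its mean log2 level of cardiomyocyte markers, 9.60, was below the 10.89 of 4X0354. Mitochondrial genes took 45.3% of the counts in 495, and it was among the 5 lowest animals for 4 members. Animal 549 had the highest sum of the 7 atrial cardiomyocyte markers, 24849 CPM against a median of 276 CPM, and the lowest of the 3 ventricular markers MYL2, MYL3 and MYH7, 532 CPM against a median of 33251 CPM. It also had the highest sum of smooth muscle and pericyte markers, 1449 CPM, and the second highest of nodal markers. Mitochondrial genes took 60.1% of the counts in 537, 48.3% in Little_R and 43% in 4X0354 against a median of 30.4%, and these 3 libraries had orthologous exon totals of 18946174, 14408012 and 19827715 against a median of 41226040. Animals 558, 529 and 4X0339 also had high mitochondrial shares, 53.9%, 52.7% and 51.7%, and 558 had an orthologous exon total of 16479166. Of the 10 members, 558 was among the 5 lowest animals for 4, 529 for 2 and 4X0339 for 1. NKX2-5 was highest in 4X0339. RIN was 7.2 in 537 and 7.8 in Little_R. The part of library quality in the low levels of 537, Little_R and 4X0354 was not tested. The defining cardiomyocyte marker TNNT2 was at or above 1893 CPM in every library. In tissue RNA, fewer cells of a type and less RNA per cell cannot be told apart.

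GATA4 and GATA6, zinc finger factors that activate many cardiac genes, were of moderate spread. GATA4 was lowest in 537 at 32.7 CPM, had a median of 101 CPM and was highest in 438 at 158 CPM. The 3 animals 537, 4X0354 and Little_R lay at or below 39.6 CPM, and the middle of the distribution was narrow, from 92.7 to 118 CPM between the lower and upper quartile. GATA6 had a median of 94.2 CPM and a highest value of 152 CPM in 4x0519. Its lowest value, 17.7 CPM in Little_R, stood far below the second lowest, 52.4 CPM in 537. GATA4 in Little_R was 0.39 of its median and GATA6 0.19 of its median in the same library.

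NKX2-5, the homeodomain factor of the early heart, ranged from 55.0 CPM in 4X0354 through a median of 210 CPM to 389 CPM in 4X0339. The low end again held Little_R at 70.0 CPM and 537 at 100.2 CPM. TBX5 had the widest spread of the T-box pair. It was 5.85 CPM in Little_R and 7.1 CPM in 537, had a median of 47.5 CPM, and reached 153 CPM in 549. The second highest animal was 438, and 549 stood alone at the top with 3.22 times the median. TBX20, which is needed for adult cardiomyocyte function, ranged from 10.9 CPM in 537 through 51.8 CPM to 114 CPM in 570, and 537, Little_R and 4X0354 were its 3 lowest animals. TBX20 in 549 was 1.21 times the median, so the high value there was seen for TBX5 and not for TBX20.

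**Figure D1:**
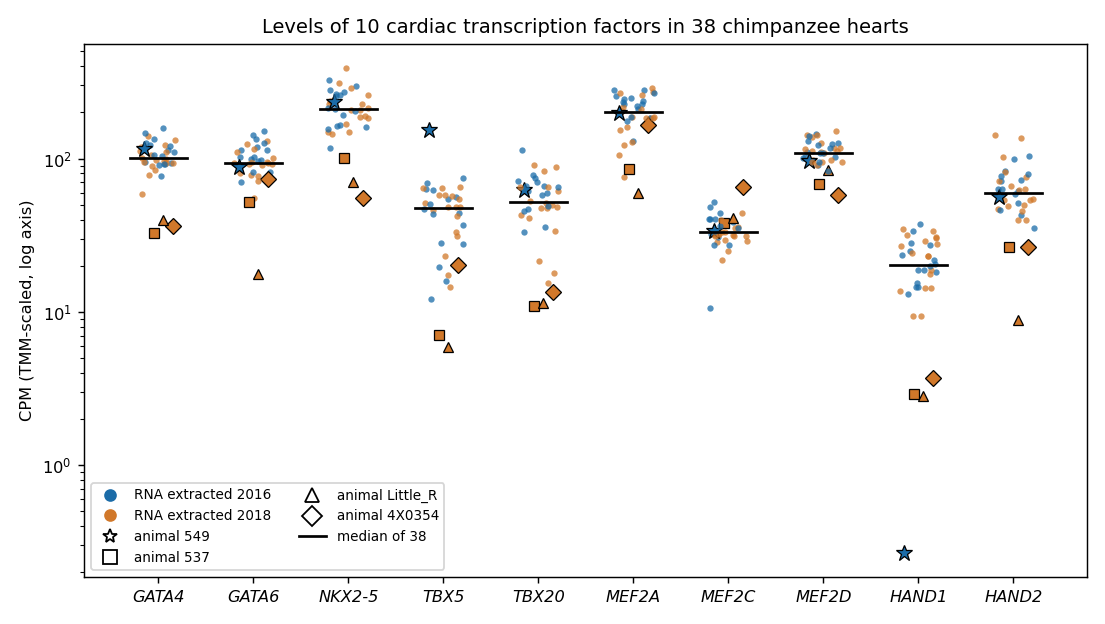
TMM-scaled CPM (log axis) of each member in 38 hearts, one point per animal, colored by year of RNA extraction, with the median as a bar and 4 animals marked by shape. Animals 537, Little_R and 4X0354 lie at the low end of most members but not of MEF2C on this scale (with the total of the gene counts, 537 and Little_R are below its median), and animal 549 is highest for TBX5 (153 CPM) and lowest for HAND1 (0.27 CPM).

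The MEF2 factors, which bind A/T-rich elements of muscle genes, differed among themselves. MEF2A ranged from 59.4 CPM in Little_R through a median of 201 CPM to 290 CPM in 554. MEF2C differed from the others in the libraries that stood apart. It was highest in 4X0354 with 65.1 CPM, 1.96 times the median of 33.2 CPM, and 537 and Little_R were 1.14 and 1.23 times the median with TMM but 0.78 and 0.77 times with the total of the gene counts as library size. The lowest MEF2C value was 10.5 CPM in 570, an animal of the earlier year in which TBX20 was highest, and the second lowest was 21.8 CPM in 4X0333. MEF2D had the smallest spread of the 10 members, from 57.6 CPM in 4X0354 through 109 CPM to 151 CPM in 676, a coefficient of variation of 19.2% over 38 animals. That of MEF2C was 25.6% and that of MEF2A 30.1%.

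HAND1 and HAND2, basic helix-loop-helix factors of the ventricles, both varied widely. HAND1 had a median of 20.1 CPM and a highest value of 37.6 CPM in 438. In 549 it was 0.27 CPM, from 24 reads, where counting error alone is 20.4%. The next lowest animals were Little_R at 2.82 CPM and 537 at 2.90 CPM. HAND1 in 549 was therefore 0.01 of the median, while HAND2 in the same library, 0.94 of its median, was near the middle. HAND2 ranged from 8.85 CPM in Little_R through 59.9 CPM to 142 CPM in 295, and 4X0339 was nearly as high with 136 CPM.

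How far these animals fell below the others depended on the library size used. With TMM, 537 was among the 3 lowest animals for 9 members, Little_R for 8 and 4X0354 for 5. With the total on exons orthologous between human and chimpanzee as library size, these counts were 6, 8 and 4. With the total of the gene counts they were 9, 9 and 4. For how many of all tested genes these animals were among the 3 lowest was not counted. Of 26 tested genes on a list of cardiac targets, Little_R was lowest for 9 and 537 for 5. MEF2C in 537 was 1.52 times the median with the orthologous exon total. HAND1 in 549 was 0.01 of the median under all 3 scalings, and TBX5 in 549 was 3.22, 3.61 and 3.75 times the median.

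To ask how variable each member is for its level, dispersion was taken. It is how far the log overdispersion (natural log) of a gene lies from the trend on mean level over 13121 expressed genes. Positive dispersion is more variation between animals than is typical for a gene of that level. HAND1 had the highest dispersion of the members, 1.25 ± 0.462 (SE, n = 38), at rank 1226 of 13121. TBX5 followed with 1.19 ± 0.303 at rank 1350, TBX20 with 0.944 ± 0.255 at rank 2002 and HAND2 with 0.606 ± 0.322 at rank 3160. These 4 lay above the trend, and HAND1, TBX5 and TBX20 did not differ from each other by more than their errors. NKX2-5 (0.0833 ± 0.309), MEF2C (−0.132 ± 0.340), MEF2A (−0.180 ± 0.320), GATA6 (−0.206 ± 0.560) and GATA4 (−0.217 ± 0.334) lay within 1 SE of the trend. MEF2D, at −1.02 ± 0.272 and rank 11373, was the least variable member for its level over all 38 animals. The members' median was −0.0244, with 5 of 10 above 0, beside a median of −0.117 and 44.9% above 0 over all expressed genes. With TMM library sizes, 8 of 10 members were above 0 and their median was 0.126, beside −0.113 and 45.1% over all genes. GATA4 (0.011), GATA6 (0.023) and MEF2A (0.053) were then above the trend. Single animals were also left out, with the distance still taken from the trend of all 38 animals. A change of the trend itself is therefore part of these values. HAND1 was 0.754 without 549, and GATA6 was −0.948 without Little_R, so each estimate shifted without a single animal. With the trend fitted again without both 537 and Little_R, GATA6 was −0.752, MEF2A −0.313 and HAND2 0.470. The values that follow keep the trend of all animals. TBX5 was 0.934 without 549, HAND2 was 0.279 without Little_R and MEF2A was −0.485 without Little_R. NKX2-5 was −0.178 without 4X0354, GATA4 was −0.417 without 4X0354, and MEF2C was −0.388 without 4X0354 and −0.398 without 570. The order of members also differed by year, with the trend fitted again in each year. In the earlier year alone MEF2A was lowest at −0.814, MEF2D was −0.488 and MEF2C was 0.521. In 2018 alone they were −0.105, −1.14 and −0.310.

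**Figure D2:**
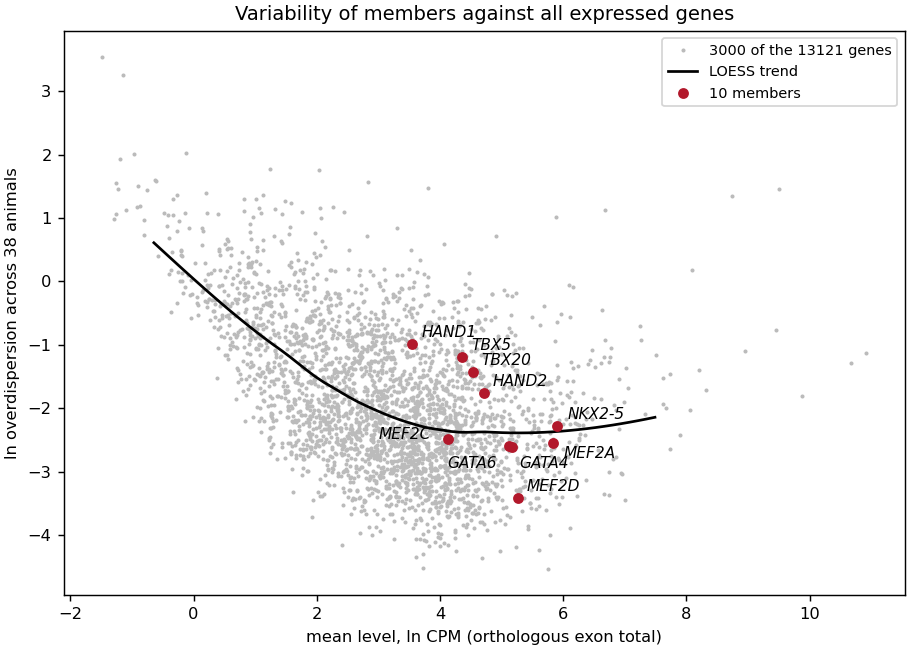
Natural logarithm of overdispersion across 38 animals against the natural logarithm of mean CPM (orthologous exon total), for a sample of 3000 genes (gray), the 10 members (red) and the LOESS trend over 13121 genes (line). HAND1, TBX5, TBX20 and HAND2 lie above the trend and MEF2D lies below it.

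Whether the members vary together was then asked by Pearson r of log2(CPM + 0.5) over the 38 animals, for all 45 pairs. Of these, 36 passed an adjusted permutation p of 0.05 (Benjamini-Hochberg over the 45 pairs), 35 positive and 1 negative, and the median r was 0.573. Over all tested genes paired with the 10 members, 45.9% reached the |r| of the weakest pair called (0.349) and 23.6% did so with a positive r, with a median r of −0.0097. By Spearman's rho, 30 pairs passed and 29 of these passed by both measures. Some pairs combine genes with a known physical partnership, and the first ones named here are examples with a high r. Other pairs were lower, such as GATA4 and TBX5 at r = 0.675 (0.187 in the earlier year) and NKX2-5 and TBX20 at 0.510 (−0.152). GATA4 and MEF2C, at r = −0.228, were not called. Whether known partners correlate more than other pairs was not tested. GATA4 and TBX20 had r = 0.795 (two-sided permutation p = 1e-05, the smallest that 100000 permutations can give, adjusted p = 6.43e-05), with rho = 0.603. It was 0.685 without the 2 animals farthest from the median of GATA4, 0.595 in the earlier year and 0.790 in 2018. GATA4 and NKX2-5 had r = 0.711 (permutation p = 1e-05, adjusted p = 6.43e-05) and rho = 0.457, with 0.236 in the earlier year and 0.805 in 2018. NKX2-5 and TBX5 had r = 0.712 with the same p-values and rho = 0.721, with 0.569 and 0.776 in these years. The closest pair was GATA6 and MEF2A, with r = 0.824 and rho = 0.724, and with 0.728 without the 2 farthest animals, 0.632 in the earlier year and 0.826 in 2018. Over the 45 pairs, the median r without the 2 farthest animals was 0.375. The paralogs HAND1 and HAND2 had r = 0.583 (permutation p = 0.00123, adjusted p = 0.00221), GATA4 and GATA6 r = 0.655 (permutation p = 6e-05, adjusted p = 0.000193), and TBX5 and TBX20 r = 0.616 (permutation p = 6e-05, adjusted p = 0.000193).

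The pairs of MEF2C depended on the scaling and on the animals. Of the 36 pairs without it, 35 were called and all had a positive r, the lowest 0.319 for TBX5 and HAND1. Of its 9 pairs, 1 was called, the negative one with MEF2D (r = −0.473, permutation p = 0.00484, adjusted p = 0.00703, rho = −0.387), and the others had r between −0.310 and 0.129. With its paralog MEF2A, MEF2C had r = 0.06 (permutation p = 0.716, adjusted p = 0.732). The negative r with MEF2D was −0.504 in the earlier year and −0.546 in 2018 and −0.256 without 570 and 4X0354, the 2 animals farthest from the median of MEF2C. It was 0.08 with the total of the gene counts as library size, so its direction depends on the scaling, and it was −0.31 and not called without the 8 animals noted as infected or exposed (permutation adjusted p = 0.116). With the total of the gene counts, 3 pairs of MEF2C were called and all 3 were positive (GATA6, TBX5 and MEF2A). With the orthologous exon total 4 were called and all 4 were negative (GATA4, TBX20, MEF2D and HAND1). The share of all tested genes correlated with MEF2C was not computed for these scalings. Whether these calls are particular to the members therefore cannot be told. By year, MEF2C and TBX5 had r = 0.574 in the earlier year and −0.362 in 2018, and MEF2C and NKX2-5 had 0.473 and −0.610.

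The relations were strong within the 21 animals of 2018 and weak within the 17 of the earlier year. The median r of the 45 pairs was 0.689 in 2018 and 0.187 in the earlier year, and 32 pairs had the same sign in both years. The difference between years was not tested. The share of all tested genes correlated with a member was not computed within years, in the smaller sets of animals or with other scalings. Whether the contrast between years is particular to the members therefore cannot be told. Within the earlier year alone, 0 pairs were called and 7 had an unadjusted permutation p under 0.05, and within 2018 alone 40 were called, 35 positive and 5 negative, the 5 all with MEF2C. In the earlier year 10 pairs had another sign than in all animals, 7 of them pairs called in all animals, for example NKX2-5 and TBX20 (0.510 in all animals and −0.152) and TBX5 and MEF2D (0.369 and −0.348). The 3 low animals 537, Little_R and 4X0354 are all of 2018. Animal 549, highest for TBX5 and lowest for HAND1, is of the earlier year. The values of that year for pairs with TBX5 or HAND1 include it, and they were not computed without it. Without the 3 low animals and 549, 18 pairs were called, 16 of them among the 36, and the median r was 0.341. GATA6 and MEF2A (r = 0.73), NKX2-5 and HAND1 (0.68), GATA4 and TBX20 (0.54), TBX20 and MEF2A (0.64), TBX5 and MEF2A (0.63), NKX2-5 and TBX5 (0.62) and HAND1 and HAND2 (0.50) were among these 18, all positive, and GATA4 and NKX2-5 (0.28) was not. TBX5 and HAND1, at r = 0.319 in all animals (permutation p = 0.0504, adjusted p = 0.0613), were at r = 0.78 without 549. Without the 8 animals noted as infected or exposed, 34 pairs were called, all positive. For the authors' normalized scores, which give the values of each animal a common distribution, 3 pairs were called, namely GATA6 with MEF2A (r = 0.62), TBX5 with MEF2A (0.50) and GATA6 with TBX5 (0.49).

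**Figure D3:**
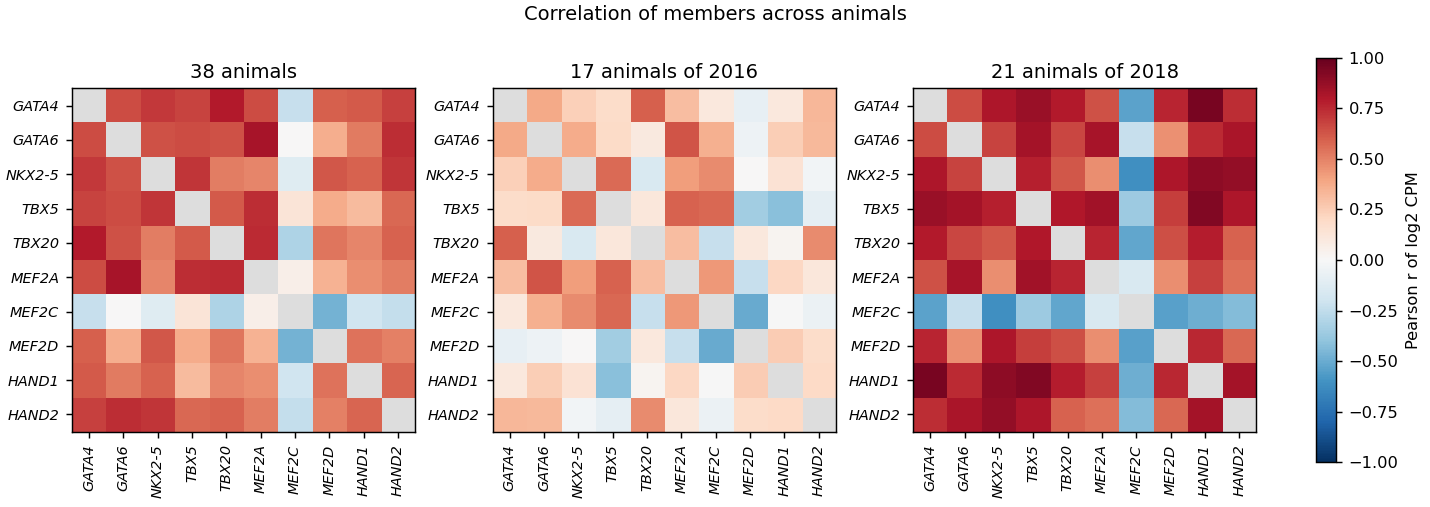
Pearson r of log2(CPM + 0.5) for the 45 pairs of members over 38 animals (left), the 17 animals of the earlier year (middle) and the 21 of 2018 (right), from −1 (blue) to 1 (red), with gray for a gene with itself. The median r is 0.573, 0.187 and 0.689, and the row of MEF2C is negative or near 0 in the left and right panels.

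The members were also correlated with marker RNA of the cell types of the tissue. Each member was compared with the mean log2 level of 12 lists of marker genes, 120 relations in all, of which 45 were called, 13 positive and 32 negative. With the total of the gene counts as library size 27 were called, 17 positive and 10 negative, so the balance of directions depends on the scaling. Without the 4 animals it was 9 positive and 5 negative. With the cardiomyocyte markers, 8 of 10 members were called and positive, while 26.9% of all tested genes had a positive r at or above the weakest called (0.389). MEF2A (r = 0.815, permutation p = 1e-05, adjusted p = 0.000267) and GATA6 (r = 0.769, same p-values) were highest. TBX5 had r = 0.739, GATA4 0.700, HAND1 0.614, HAND2 0.604, NKX2-5 0.584 and TBX20 0.546, the last with an adjusted p of 0.00413 by permutation. By Spearman's rho, TBX20 (0.219, permutation adjusted p = 0.323) and HAND2 (0.236, permutation adjusted p = 0.289) did not pass. MEF2D had r = 0.351 (permutation p = 0.0308, adjusted p = 0.0769) and MEF2C r = −0.0031 (permutation p = 0.983, adjusted p = 0.999). Without the 4 animals that stood apart, MEF2A (r = 0.67), TBX5 (0.63), HAND1 (0.58) and GATA6 (0.52) still passed, while GATA4 (0.46), NKX2-5 (0.35), HAND2 (0.19) and TBX20 (0.18) did not. Within the earlier year, r with the cardiomyocyte markers was 0.62 for GATA6 and 0.61 for MEF2A but 0.11 for GATA4, 0.05 for HAND2 and −0.26 for TBX20.

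Called relations to markers of other cells were negative. With the 7 endothelial markers, 9 of 10 members were called and negative (24.7% of all tested genes were at least as negative as the weakest called), the lowest GATA4 at r = −0.715 and MEF2D at −0.673. The exception was MEF2C at r = 0.19, not called. Fibroblast markers gave 8 negative calls (19.9% of tested genes), with HAND1 lowest at r = −0.606, and mesothelial markers gave 9 (22.5%), with GATA6 lowest at r = −0.821. Of the mesothelial markers, MSLN, WT1 and KRT19 were all highest in Little_R, and GATA6 had r = −0.49 without the 4 animals. Smooth muscle and pericyte markers gave 3 negative calls (4.29% of tested genes) and nodal markers 2 (7.95%), with HAND1 lowest in both. Macrophage, lymphoid, adipocyte and Schwann markers gave 0 calls by the permutation test on r, 0 of these relations had an unadjusted p under 0.05, and 6.89%, 6.17%, 0.894% and 6.3% of tested genes reached the |r| of the weakest relation called. Over the 120 relations, 51 had an unadjusted p under 0.05, 30 were called by Spearman's rho, and 14 on Pearson r without the 4 animals. With the total of the gene counts, endothelial and fibroblast markers gave 1 negative call each and mesothelial markers 8, and the share of tested genes was not computed there.

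**Figure D4:**
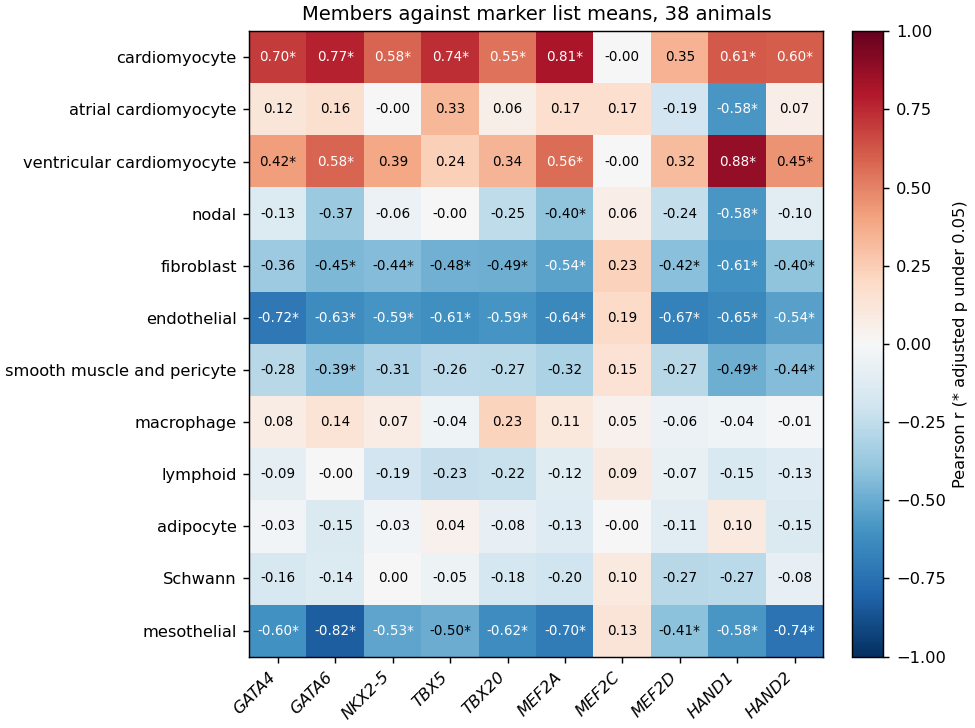
Pearson r over 38 animals between each member (columns) and the mean log2(CPM + 0.5) of each marker list (rows), with the value in each cell and a star for an adjusted permutation p under 0.05. Cardiomyocyte and endothelial markers give 8 positive and 9 negative calls, and the column of MEF2C holds none.

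When each member was taken as its residual from a straight line on the cardiomyocyte marker mean, 16 of the 45 pairs were called, 15 positive and 1 negative, all of them among the 36, and the median r was 0.281. The share over all tested genes was not computed for such residuals. The members were also set against measures of library quality. For the mitochondrial share 5 members were called over all animals, all negative, with TBX20 lowest at r = −0.688. Of tested genes, 16.4% were at least as negative as the weakest of these 5. By Spearman's rho, TBX20 alone passed (−0.487, permutation adjusted p = 0.0414). Within the earlier year, r was 0.095 for TBX20, 0.067 for GATA4, 0.125 for GATA6, 0.652 for MEF2A and −0.259 for MEF2D. For the effective library size 8 were called, all positive, with TBX20 highest at r = 0.691, and 19.4% of tested genes reached the weakest of them. None of these passed by rho, where the lowest permutation adjusted p was 0.0636. TBX20 had r = −0.050 with the effective library size in the earlier year and 0.831 in 2018. The part of library quality in these correlations was not tested.

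HAND1 and TBX5 separated in the heart that carried atrial markers. Ventricular markers gave 5 positive calls. HAND1 had r = 0.880 with these 3 markers (permutation p = 1e-05, adjusted p = 0.000267, rho = 0.589), and 18.2% of all tested genes had a positive r at or above the weakest called. The r of HAND1 was 0.936 in the earlier year, to which 549 belongs, 0.827 in 2018 and 0.694 without 549 and Little_R. Values of the earlier year without 549 were not computed. The call held without 549 (r = 0.78) and without the 4 animals (r = 0.56). With the 7 atrial markers, HAND1 was the only member called (r = −0.578, permutation p = 0.00956, adjusted p = 0.0294, 1.18% of tested genes as negative as the weakest called), and that relation rested on 549, since r was −0.06 without it. It was −0.58 and not called without the 8 animals noted as infected or exposed (permutation adjusted p = 0.0597), and rho was −0.259 (permutation adjusted p = 0.238). TBX5 was at r = 0.241 with the ventricular markers in all animals (permutation p = 0.138, adjusted p = 0.267) and at 0.79 without 549. It was at −0.334 in the earlier year, with 549 included, and at 0.881 in 2018. With the atrial markers TBX5 had r = 0.332 (permutation p = 0.0518, adjusted p = 0.12) and 0.07 without 549. The atrial markers that were highest in 549 include MYL7 (6722 CPM against a median of 77.3 CPM), BMP10 (3122 CPM against a median of 0.02 CPM) and NPPA (11085 CPM against 34.1 CPM). Markers of other lists were also highest in 549, namely the nodal channel HCN4 (40.1 CPM against 6.56 CPM) and the smooth muscle genes ACTA2 (587 CPM against 83.1 CPM) and TAGLN (435 CPM against 115 CPM).

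**Figure D5:**
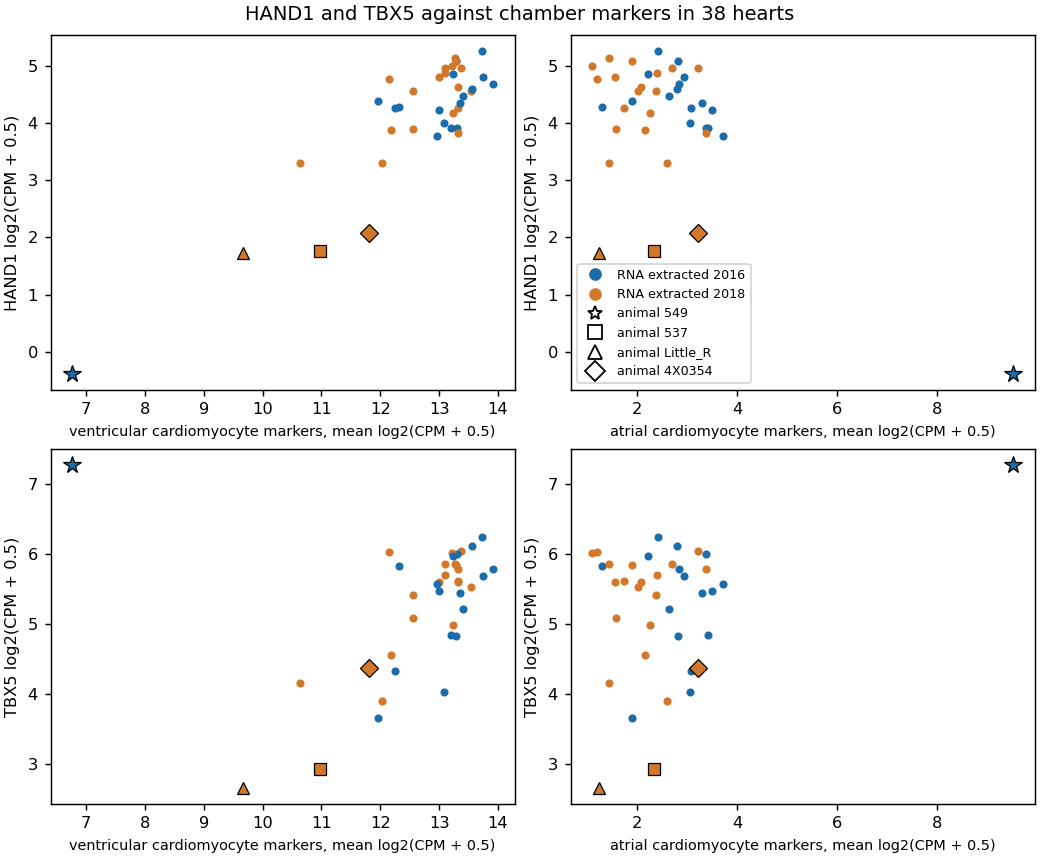
HAND1 (top) and TBX5 (bottom), as log2(CPM + 0.5), against the mean log2(CPM + 0.5) of 3 ventricular (left) and 7 atrial (right) cardiomyocyte markers, one point per animal, colored by year of RNA extraction. Animal 549 (star) is at the low end of ventricular and the high end of atrial markers, with the lowest HAND1 and the highest TBX5 of the 38 hearts.

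Partners of the members were examined in the same heart. Of 40 tested genes on a list of 44 partners and relatives, 549 held the lowest value for IRX3, IRX4, IRX5, HEY2 and FHL2 and the highest for NR2F1 and SMARCD3, names that were chosen after their values were seen. IRX4, a homeodomain factor of the ventricle, was 0.22 CPM in 549 against a median of 11.5 CPM and a second lowest of 2.28 CPM. HEY2, a ventricular repressor, was 10.7 CPM against a median of 48.2 CPM and a second lowest of 13.1 CPM. The value in 549 and the second lowest were 0.78 and 0.84 CPM for IRX5, 3.54 and 4.99 CPM for IRX3, and 93.2 and 155 CPM for FHL2. For SMARCD3, 549 had 115 CPM and the second highest animal 94.5 CPM. The share of all tested genes with their lowest or highest value in 549 was not computed. NR2F1, a nuclear receptor known for the atria, was 19.8 CPM in 549, where the second highest animal had 1.96 CPM and the median was 0.29 CPM.

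Genes whose pattern over the 38 animals was most like that of a member, by Spearman's rho over 15790 tested genes, are given as a description. HAND1 was most like IRX4 (rho = 0.85, 0.79 in the earlier year and 0.90 in 2018) and PROB1 (0.85). MEF2A was most like BNIP2 (0.93) and LANCL1 (0.92), the closest matches of any member. TBX5 was most like RNF43 (0.86) and TADA2B (0.84), and MEF2D most like P2RY2 (0.85) and GTF2IRD1 (0.78). NKX2-5 was most like ZER1 (0.84) and GPS1 (0.81), and TBX20 most like TCFL5 (0.82) and ZBTB41 (0.80). GATA4 was most like GPR22 (0.77) and OAZ2 (0.76), GATA6 most like DPF3, a chromatin remodeling subunit of muscle (0.77), and PYGB (0.77), and HAND2 most like SYDE2 (0.75) and BSN (0.72). MEF2C had the weakest matches, GALC (0.69) and SLC66A3 (0.65).

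Each member was tested for extraction year with sex in the model (edgeR quasi-likelihood test over 15790 genes, Benjamini-Hochberg adjustment). Of all genes tested, 16.1% passed, 11.2% higher in 2018 and 4.82% lower. None of the 10 members passed (0 by edgeR and 0 by DESeq2), and 3 had an unadjusted p under 0.05, where 30.8% of all genes did. All 10 estimates of the log2 change from the earlier year to 2018 were below 0, with a median of −0.21, and 51.3% of all tested genes were below 0. TBX20 was 62.3 ± 18.6 CPM in the earlier year (SD, n = 17) and 45.6 ± 24.6 CPM in 2018 (SD, n = 21), a log2 change of −0.48 ± 0.23 (SE, edgeR adjusted p = 0.146). MEF2A was 224 ± 40.0 CPM and 176 ± 64.9 CPM, a log2 change of −0.35 ± 0.15 (edgeR adjusted p = 0.112). GATA6 had a log2 change of −0.31 ± 0.14 (edgeR adjusted p = 0.131), GATA4 of −0.28 ± 0.14 (edgeR adjusted p = 0.191) and TBX5 of −0.30 ± 0.28 (edgeR adjusted p = 0.488). The other members had changes between −0.14 and −0.02. The ranges of the years overlapped for each member. With the mitochondrial share in the model, the changes of TBX20, MEF2A and GATA6 were −0.06, −0.13 and −0.14, and without 537 and Little_R they were −0.35, −0.25 and −0.21.

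RNA integrity gave no call for a member. With year and sex in the model, 0% of 16462 genes passed for the slope per RIN unit, and 13.8% had an unadjusted p under 0.05 (0 of 10 members). By DESeq2, 168 genes passed and 0 members. TBX20 had the largest slope, a log2 change of 0.13 ± 0.075 per RIN unit (SE, unadjusted p = 0.0817, edgeR adjusted p = 0.425), and the other slopes were between −0.09 and 0.04.

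The partners and the targets of the members were looked at in the same fits. Of the 40 tested partners and relatives, 4 were higher in 2018 and 0 lower, beside 11.2% and 4.82% of all genes, with a median log2 change of 0.15. NFATC4, a calcium-responsive factor that binds GATA4, had a log2 change of 1.36 ± 0.28 (edgeR adjusted p = 0.000806). The class IIa histone deacetylases HDAC7 and HDAC4, which bind and repress MEF2 factors, had 0.84 ± 0.22 (edgeR adjusted p = 0.008) and 0.36 ± 0.099 (edgeR adjusted p = 0.0109), and the repressor TBX2 had 0.70 ± 0.24 (edgeR adjusted p = 0.0416). All 4 were highest in 537, for example NFATC4 at 89.1 CPM against a median of 12.6 CPM, and the list had 3 such calls without 537 and Little_R and 5 without 549. Of the 26 tested cardiac targets, 0 were higher and 2 lower, with a median log2 change of −0.27: the atrial light chain MYL7 at −2.02 ± 0.60 (edgeR adjusted p = 0.0173) and the stress-responsive ANKRD1 at −1.10 ± 0.38 (edgeR adjusted p = 0.0424). Without 549, 0 of the 26 targets passed. For RIN, both lists had 0 calls.

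By dispersion, both lists lay above the members. Of 38 expressed partners and relatives, 27 were above 0, with a median of 0.652, and of 26 expressed targets 24 were above 0, with a median of 0.810, beside 5 of 10 and −0.0244 for the members and 44.9% of all genes above 0. Among the targets, the natriuretic peptide genes NPPA (3.59, rank 10 of 13121) and NPPB (3.11, rank 41) were the most dispersed, followed by MYL7 (3.08, rank 46), and DES was the least (−1.27). NPPA was 11085 CPM in 549 and 8064 CPM in 4X0354 against a median of 34.1 CPM. MYL7 was 6722 CPM in 549, where the second highest animal had 582 CPM. Dispersion of the list genes was not computed with single animals left out. Among the partners, IRX3 (1.85) and NFATC4 (1.84) were the most dispersed and SRF (−0.899) the least, names that were chosen after their values were seen. Of the genes of both lists, 17 are also on a marker list.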

How the data were processed

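Heart RNA-seq of 38 chimpanzees was analyzed as deposited. The gene table holds the read count of each of 31373 annotated genes, which the authors obtained without normalization from STAR 2.6.1b alignments to Pan_tro_3.0 with Ensembl 95 genes. Libraries were made with TruSeq v2, which does not mark strand, so reads of overlapping genes cannot be told apart. A RefSeq table of another assembly (NHGRI_mPanTro3-v2.0) has an unnamed gene model overlapping GATA6, MEF2C and MEF2D, 1 each. A second deposited count table, for which the authors ran featureCounts 1.6.3 over orthologous exons, was used for library totals (14408012 to 81603350) only. The third holds a normalized score for 37 animals: the authors standardized log CPM within genes and then applied quantile normalization. In all, 52 per-sample columns matched no sample of the series and were not used. RIN, extraction year, sex, primate center and notes of infection came from the study's sample table.

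Symbols were available for 18040 of the gene identifiers, and 4 listed genes (GJA1, KCNH2, CLDN5 and UPK3B) were not found by symbol. Differential expression used edgeR 4.0.16 (TMM, filterByExpr, quasi-likelihood test) with DESeq2 1.42.0 as an alternative. Overdispersion came from a negative binomial maximum likelihood fit, offset by the orthologous exon total, for genes reaching 6 CPM in 1 or more animals. Its search was written for this work because the fit of MASS diverged for some genes. The trend was LOESS (degree 1, span 0.75) and standard errors are the SD over 1000 draws of 38 animals with replacement. These draws and the values with 1 animal left out were measured from the trend of all 38 animals. In the other settings the trend was fitted again. Correlations used 100000 permutations and a pseudocount of 0.5 CPM. The steps were tested on simulated data. At the lowest HAND1 count, 24 reads, counting error is 20.4%, and at the median count of any member at most 2.77%. Other tools were R 4.3.3, Python 3.11.15, numpy 2.4.6, pandas 2.3.3 and matplotlib 3.10.9.

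The rule for the members uses names alone, but the members, gene lists and marker lists were proposed with earlier results of these data known. Named genes are the 10 members, for each the 2 genes with the highest rho, up to 5 genes per direction with the smallest p among those of the partner and target lists that passed for extraction year, and marker genes where a list is described. The alternatives were other library sizes, filters, pseudocounts, spans, covariates, values and sets of animals. The mitochondrial share as a covariate, the residuals on cardiomyocyte markers, the pairs without 549, the sets without all 4 animals and those without the animals noted as infected or exposed were added after seeing the data.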

Additional observations from a re-analysis of the deposited data

How the results depend on the processing

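The number of members called for extraction year and for RIN stayed at 0 under each alternative run. Of all genes tested, the share called for extraction year was 2.08% in the 21 Yerkes animals alone and 3.18% with the mitochondrial share as covariate, against 16.1%. For RIN it was 1.02% by DESeq2 (168 genes), 0.00742% with no filter on low counts (2 genes) and 0.0119% with the orthologous exon total (2 genes), against 0%. The members' median dispersion was between −0.17 (without 4X0354) and 0.0015 (without 95A014) when each animal was left out in turn. These values keep the trend of all animals. With the trend fitted again in each setting, the median was 0.126 with TMM library sizes and 0.104 without 537 and Little_R. It was then 0.257 in the earlier year alone, 0.053 in 2018 alone and −0.087 at a span of 0.3. Values from the kept trend and from a trend fitted again cannot be compared directly. Of the 45 pairs, 0 were called in animals of the earlier year alone, 3 on the deposited scores, 18 without the 4 animals and 16 on residuals from the cardiomyocyte marker mean. Of the 120 relations to marker lists, 27 were called with the total of the gene counts, 12 without 537 and Little_R and 14 without the 4 animals. The cause of these shifts was not tested.

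Changes of sign of the estimates for year and RIN and of the correlations named in the text were as follows, beside those by year given with the pairs. The log2 change for year, not called in any setting, was 0.030 for MEF2C with the orthologous exon total. For MEF2D it was 0.015 without 537 and Little_R and 0.084 with the mitochondrial share, for HAND2 0.030 and 0.039 in the same settings and 0.066 in Yerkes animals. For HAND1 it was 0.12, 0.17 and 0.085 in these settings, 0.011 with no filter and 0.0047 with the orthologous exon total. The slope per RIN unit without 537 and Little_R was 0.033 for GATA4, 0.019 for GATA6, 0.024 for TBX5, 0.012 for HAND2 and −0.014 for MEF2C, and in 2018 animals alone it was −0.024 for MEF2C and −0.0013 for MEF2D. The r of MEF2A and MEF2D was −0.0023 with the orthologous exon total, −0.23 in the earlier year and −0.12 on the deposited scores. That of MEF2C and MEF2D was 0.078 with the total of the gene counts and 0.047 on the deposited scores, and that of MEF2A and MEF2C was −0.13 with the orthologous exon total and −0.15 in 2018. That of TBX5 and HAND1 was −0.42 in the earlier year, to which 549 belongs, and −0.25 on residuals. With the cardiomyocyte markers, MEF2C had r = 0.24 with the total of the gene counts, 0.14 without 537 and Little_R, 0.22 without the 4 animals and 0.052 without the animals noted as infected or exposed, and MEF2D had −0.11 with the orthologous exon total and −0.014 without the 4 animals. TBX5 had r = −0.031 with ventricular markers without 537 and Little_R and −0.045 with atrial markers without the 4 animals.

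No paired analysis was possible because the libraries form 1 group with 1 library per animal.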
